A study of Mus musculus with 30 samples.

Results

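The expression of 10 genes of the LIF and STAT3 pathway was followed in mouse embryonic stem cells (ESCs) in 30 RNA-seq libraries from 2 experiments. The genes were chosen by name, as the receptor subunits Lifr and Il6st, the kinase Jak1, the transcription factor Stat3, and the genes Socs2, Socs3, Pim1, Pim3, Bcl3 and Junb, which STAT3 or related signals are known to induce. All 10 were present among the 52630 genes of the time-course count table and the 55487 genes of the passage count table, and all 10 passed the filter on low counts, as did 16049 and 16054 genes in all. In the time course, E14tg2a ESCs, a widely used line, were taken from Serum/LIF (0 h) and from Enhanced Metabolic Media (EMM) 3 h, 9 h or 24 h after the change. The labels do not say clearly whether the 0 h cells were taken before any change or after a further 24 h in Serum/LIF, so the time-course differences are against Serum/LIF cells of either kind. EMM is Serum/LIF medium in which D-galactose takes the place of D-glucose and pyruvate. In the passage experiment the same line was kept in Serum/LIF (SL in the plots), EMM or 2i/LIF for 10 passages (P10) or 20 passages (P20), 2i/LIF being medium with inhibitors of the kinases MEK and GSK3. The study introduces 2i/LIF as a defined medium, whereas Serum/LIF and EMM contain fetal bovine serum. In comparisons with 2i/LIF, the parts of the inhibitors and of the serum and base medium cannot be told apart. Each of the 4 groups of the time course and the 6 groups of the passage experiment had 3 libraries. LIF was in every medium, so no group shows these genes without the cytokine, and all groups come from 1 cell line.

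LIF is a cytokine of the IL-6 family that keeps mouse ESCs undifferentiated. It binds a receptor made of LIFR and gp130 (the product of Il6st), the attached JAK kinases phosphorylate STAT3, and phosphorylated STAT3 enters the nucleus and activates transcription. Socs3 is among the fastest and most direct of its targets, and its protein blocks the receptor and JAK1, which closes a feedback loop. Stat3 itself, Pim1, Pim3, Bcl3 and Junb are also known to respond to the pathway, and some of them respond to MAP kinase signals as well. The study compared signalling pathways among the 3 media, and the comparisons here ask at which level the RNA of pathway members stood after the change of medium and after long culture. By western blot, the study reports phosphorylated STAT3 as elevated in EMM and in the medium with kinase inhibitors, relative to Serum/LIF. It gives no significant difference in phosphorylated STAT3 between EMM and the medium with inhibitors. RNA levels do not measure STAT3 phosphorylation, so a low level of a target RNA is not read here as low STAT3 signalling.

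Socs3, Junb, Pim3 and Bcl3 were the 4 members that stood over 2-fold lower in 2i/LIF than in Serum/LIF after 10 passages, and the 250 bases before their RefSeq transcription starts are shown because known STAT3 sites can lie there. The sequences are from RefSeq on the build GRCm38.p6, written 5′ to 3′ on the strand of the gene, in lower case, with any match to the STAT motif TTCNNNGAA in capitals. The motif reads the same on both strands. The Socs3 window is chr11:117969367-117969616 on the minus strand, that of Junb is chr8:84978749-84978998 on the minus strand, that of Pim3 is chr15:88861944-88862193 on the plus strand and that of Bcl3 is chr7:19822756-19823005 on the minus strand.
Socs3: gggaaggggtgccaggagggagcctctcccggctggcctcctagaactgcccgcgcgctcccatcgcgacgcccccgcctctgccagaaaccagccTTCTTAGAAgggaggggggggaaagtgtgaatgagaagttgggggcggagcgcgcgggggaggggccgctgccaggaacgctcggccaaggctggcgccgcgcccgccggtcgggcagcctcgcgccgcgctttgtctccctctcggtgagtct
Junb: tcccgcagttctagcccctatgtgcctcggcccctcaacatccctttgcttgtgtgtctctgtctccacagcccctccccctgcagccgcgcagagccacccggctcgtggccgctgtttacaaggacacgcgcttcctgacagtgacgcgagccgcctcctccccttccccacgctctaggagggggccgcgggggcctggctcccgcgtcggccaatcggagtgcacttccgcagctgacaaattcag
Pim3: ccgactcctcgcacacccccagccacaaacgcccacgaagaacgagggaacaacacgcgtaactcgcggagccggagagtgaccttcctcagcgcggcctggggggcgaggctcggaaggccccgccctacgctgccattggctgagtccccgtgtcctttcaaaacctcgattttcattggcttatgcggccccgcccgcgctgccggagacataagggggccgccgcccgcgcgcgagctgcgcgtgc
Bcl3: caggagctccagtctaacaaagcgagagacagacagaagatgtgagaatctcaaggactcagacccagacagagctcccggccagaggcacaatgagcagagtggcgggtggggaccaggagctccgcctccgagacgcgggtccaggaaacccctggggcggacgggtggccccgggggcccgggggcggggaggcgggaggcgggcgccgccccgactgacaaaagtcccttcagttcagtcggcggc
The Socs3 window held 1 match, TTCTTAGAA, beginning 154 bases before the start, and the Junb, Pim3 and Bcl3 windows held none. RefSeq windows were found for 9 of the 10 members, with 11 starts in all, and Socs3 was the only one of the 9 with a match. The Socs3 window lies within the wider span that GENCODE gives the gene, up to base 117970047, so it is upstream of the RefSeq start and not of the outermost GENCODE start. The motif was present in 7.02% of the windows of 250 bases before all 32851 listed starts. No match says only that these letters are not in the window.

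Library totals lay between 24074132 and 35301962 counts in the time course and between 6944904 and 27912928 in the passage experiment. The shallowest library, replicate 1 of P20 2i/LIF, stood apart from replicates 2 and 3 of its group, and the ribosomal RNA gene CT010467.1 took 3.95% of its counts. Without that library the log2 fold change of Socs3 between P20 and P10 in 2i/LIF was 2.91 and that of Bcl3 2.13, and the calls that changed were those of Junb between EMM and 2i/LIF at P20 and of the Pim3 and Jak1 interactions with passage. The same gene took 1.54% in replicate 3 of P10 EMM, without which Il6st in EMM over Serum/LIF at P10 (0.51, adjusted p = 0.00624) and Lifr between P20 and P10 in EMM (-0.34, adjusted p = 0.00903) passed edgeR's test and no other call of a member changed. Replicate 1 of P10 2i/LIF also differed more from replicates 2 and 3 of its group (chi-square per degree of freedom of 20.4 and 29.9) than these did from each other (6.51), and mitochondrial genes took 1.47% of its counts against 3.35% and 3.39%. Without it the log2 difference of Socs3 between 2i/LIF and Serum/LIF at P10 was -3.80 and that of Junb -3.20, and no member's call changed. All 8 ESC markers examined were above 50 normalized counts in every group. Their levels were not constant, with sums of 95900 to 127000 normalized counts per library in P10 EMM, 77000 to 81100 in P10 Serum/LIF and 67300 to 82300 in P10 2i/LIF, and of 72300 to 108000 over the P20 libraries. The median log2 fold change of the 8 ESC markers was 0.49 in EMM over Serum/LIF at P10 and -0.08 at P20, and 0.52 and 0.02 in EMM over 2i/LIF. The cells were grown on gelatin, and the 7 markers of fibroblasts, which serve as feeders in other ESC cultures, summed to between 2870 and 8500 normalized counts per library in Serum/LIF of the passage experiment, to between 357 and 490 in EMM and to between 90 and 123 in 2i/LIF. In Serum/LIF the collagen gene Col1a1 alone had means of 1890 at P10 and 3780 at P20, while Dcn, a defining fibroblast gene, was at most 16.3 there and at 0 in every 2i/LIF library. In the time course the same sum was between 1980 and 2670 at all 4 time points. The 3 neural markers summed to between 1800 and 2060 in P10 Serum/LIF against 293 to 592 in the other P10 libraries, and to between 584 and 1290 in all P20 libraries. In EMM over Serum/LIF at P10, 1 of these 3 markers was higher and 1 lower by edgeR's test, with log2 values from -3.19 to 3.71. The 3 mesoderm markers summed to between 10.4 and 42.8 in EMM, 112 and 896 in 2i/LIF and 252 and 769 in Serum/LIF. Primitive endoderm (79.9 to 347) and trophectoderm markers (385 to 1410) had these ranges over all libraries of that experiment. Trophectoderm sums at P10 were 1240 to 1410 in Serum/LIF, 385 to 504 in EMM and 702 to 896 in 2i/LIF, without overlap. At P20 they were 1140 to 1370, 1090 to 1170 and 811 to 871. Primitive endoderm sums in the same order were 179 to 232, 109 to 126 and 91.5 to 103 at P10. At P20 the latter were 229 to 315, 229 to 347 and 79.9 to 136. In the time course the neural sum was 1700 to 2090 at 0 h, 2840 to 3150 at 3 h, 1760 to 2450 at 9 h and 2080 to 2580 at 24 h, so it was highest at 3 h. The mesoderm sum was 489 to 546 at 0 h and 310 to 352 at 24 h. Over the same span the primitive endoderm sum went from 414 to 448 up to 748 to 766 and the trophectoderm sum from 1680 to 1700 up to 2260 to 2340. Of the 5 trophectoderm markers tested, 3 were higher and 1 was lower at 24 h by edgeR's test, with log2 values from -1.05 to 2.05. These values run beside every comparison below, and their part in the results was not tested. In bulk RNA, fewer cells of a type and less RNA per cell cannot be told apart. Nothing in the labels says whether P10 and P20 cells were collected or sequenced together, so passage and batch cannot be told apart.

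Per length of transcript, Pim3 was the most abundant member and Lifr the least abundant at 0 h. Pim3, a serine/threonine kinase that favours survival and self-renewal, had 113 ± 10.7 RPKM (SD, n = 3), a level scaled to exon length and library size. Its relative Pim1 had 51.5 ± 2.74 RPKM, Socs3 29.4 ± 2.82, Junb 27.9 ± 2.61 and Bcl3 21.8 ± 1.03. The signalling components were lower, with Socs2 at 14.6 ± 0.544 RPKM, Stat3 at 12.3 ± 0.267, Il6st at 9.32 ± 0.463, Jak1 at 9.04 ± 0.286 and Lifr at 6.64 ± 0.373. All further levels are normalized counts, which compare a gene between libraries of 1 experiment and not between genes.

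After 3 h in EMM, 6 of the 10 members rose and 2 fell, and 34.5% of all genes (16.3% higher and 18.2% lower) passed the test. The test was edgeR's quasi-likelihood F test with Benjamini-Hochberg adjustment over all genes, and a gene passed at an adjusted p below 0.01. The median log2 fold change was 0.30 over the members and -0.013 over all genes. Socs3 was the only member that more than doubled, a size and direction reached by 1.7% of all genes. Its libraries held 2706, 2576 and 2240 normalized counts at 0 h (replicates 1, 2 and 3, the order used throughout) and 5274, 5299 and 4947 at 3 h, with no overlap. The log2 fold change was 1.04 ± 0.07 (SE), with an adjusted p of 3.22e-08. With 1 library left out it ranged from 0.97 to 1.1, so the doubling did not hold in every such fit. Pim3 stood at 8503, 8611 and 7227 at 0 h and at 13540, 13260 and 12930 at 3 h, a log2 fold change of 0.71 ± 0.09 (adjusted p = 8.66e-06). Bcl3, a nuclear IκB-family cofactor, had 1660, 1602 and 1511 at 0 h and 2595, 2585 and 2411 at 3 h, a log2 fold change of 0.67 ± 0.05 (adjusted p = 2.67e-08). For both genes every EMM library lay above every Serum/LIF library. The neural marker sum was also highest at 3 h, and its part was not tested.

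Stat3 rose as well. Its 0 h libraries held 3546, 3396 and 3475 normalized counts and its 3 h libraries 4808, 4977 and 5138, a log2 fold change of 0.52 ± 0.04 (SE, adjusted p = 8.05e-08). Junb, a subunit of the AP-1 transcription factor, rose by less, from 2017, 1977 and 1692 to 2505, 2425 and 2307, a log2 fold change of 0.35 ± 0.07 (adjusted p = 0.000843). The smallest rise was that of Socs2, which encodes an inhibitor best known from growth hormone and STAT5 signalling, at 0.24 ± 0.04 (adjusted p = 0.000101). The members that fell were Il6st and Pim1. Il6st went from 2937, 3003 and 3226 to 2459, 2307 and 2334, a log2 fold change of -0.37 ± 0.04 (adjusted p = 3.72e-06). Pim1 went from 5148, 5365 and 4824 to 4111, 3968 and 3895, a log2 fold change of -0.36 ± 0.05 (adjusted p = 6.28e-05). The libraries of the 2 time points did not overlap for any of these genes. Pim1 and Pim3, related kinases, thus lay on opposite sides of 0 h. Lifr and Jak1 did not pass, with log2 fold changes of -0.08 (95% confidence interval -0.19 to 0.02) and 0.09 (0.01 to 0.16).

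**Figure D1:**
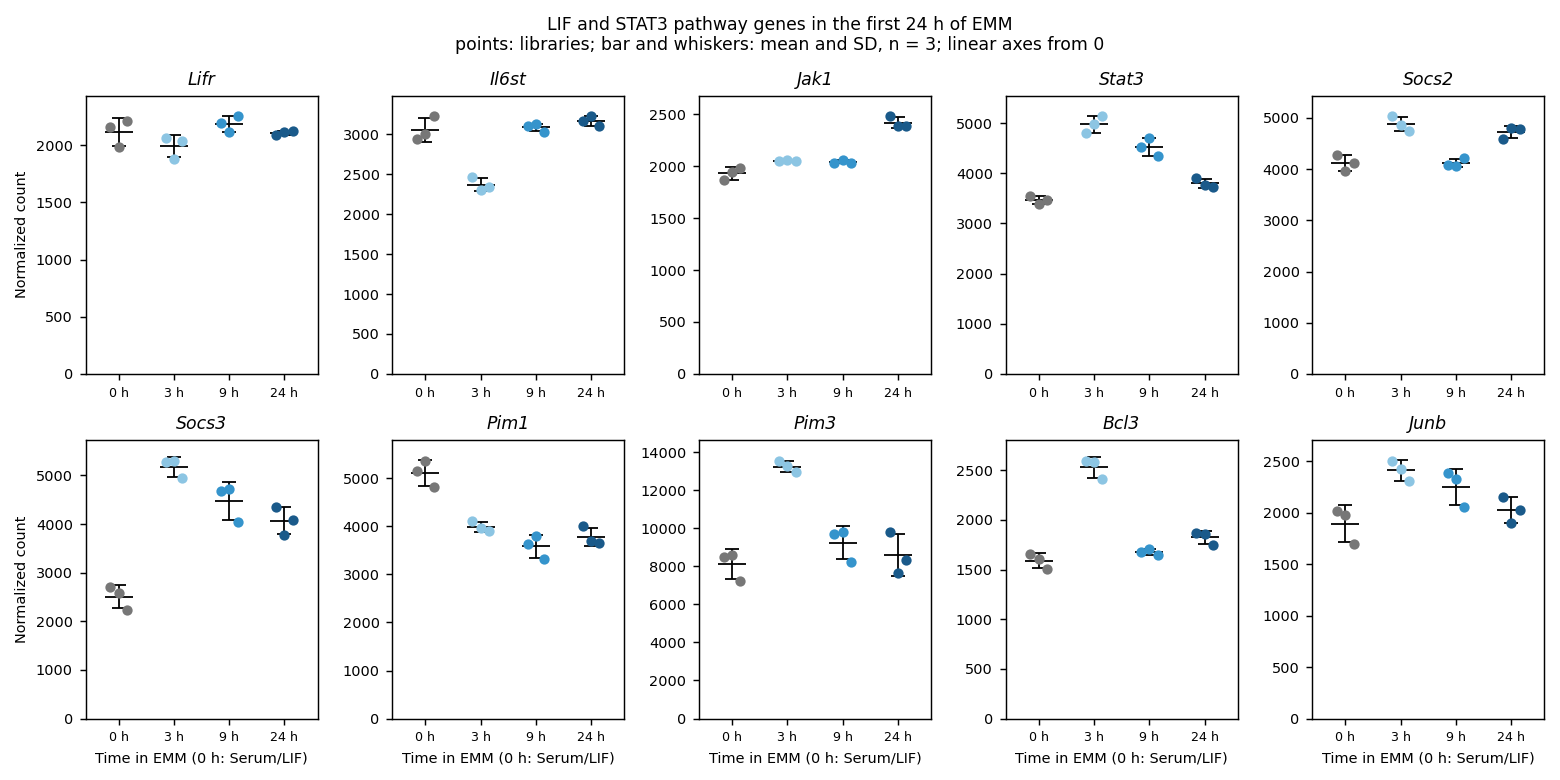
Normalized counts (vertical axes, linear from 0) of the 10 members in Serum/LIF (0 h) and at the 3 times in EMM, with 1 point per library and the mean and SD of 3 libraries. Socs3 lay at 2240 to 2706 at 0 h and at 3780 to 5299 in all EMM libraries, while Pim3 and Bcl3 were highest at 3 h and Pim1 was highest at 0 h.

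By 9 h, 3 members remained above 0 h and 1 below, where 38.2% of all genes (18.5% higher and 19.7% lower) passed. Socs3 held 4683, 4720 and 4033 normalized counts, a log2 fold change of 0.84 ± 0.07 (SE, adjusted p = 2.72e-07). Stat3 held 4515, 4703 and 4342, a log2 fold change of 0.38 ± 0.04 (adjusted p = 1.67e-06). Both genes had all EMM libraries above all 0 h libraries. Junb was higher by 0.25 ± 0.07 (adjusted p = 0.00766), a call that was lost when any of 3 libraries was left out (replicate 3 at 0 h, replicates 1 and 2 at 9 h), with values from 0.19 to 0.23. Pim1 was lower by the log2 value -0.51 ± 0.05 (adjusted p = 1.73e-06), and its 9 h libraries held 3638, 3798 and 3331. Compared directly with 3 h, Bcl3 fell (-0.59 ± 0.05, adjusted p = 2.52e-07), as did Pim3 (-0.52 ± 0.09, adjusted p = 0.000225) and Socs2 (-0.25 ± 0.04, adjusted p = 0.00014). Il6st rose over the same interval by 0.38 ± 0.04 (adjusted p = 4.77e-06), and its 9 h libraries, at 3101, 3123 and 3033, overlapped those of 0 h. These 4 members that moved between 3 h and 9 h compare with 26.5% of all genes (13.7% higher and 12.9% lower). The difference of Socs3 between 9 h and 3 h did not pass (-0.21, 95% confidence interval -0.36 to -0.05, adjusted p = 0.032).

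At 24 h, 4 members were higher than at 0 h and 1 was lower, against 44% of all genes (21.8% higher and 22.2% lower). Socs3 was still the largest rise among them, at 4346, 3780 and 4084 normalized counts and a log2 fold change of 0.70 ± 0.07 (SE, adjusted p = 1.24e-06). Jak1, the kinase that phosphorylates gp130 and STAT3, was at 2481, 2390 and 2387 against 1865, 1943 and 1985 at 0 h. Its log2 fold change was 0.33 ± 0.04 (adjusted p = 2.19e-06), and it rose between 9 h and 24 h (0.25 ± 0.04, adjusted p = 0.000199). Jak1 was the only member that passed at 24 h and at neither earlier time. Stat3 moved the other way over that interval, falling by 0.25 on the log2 scale (SE 0.04, adjusted p = 0.00038) to 3903, 3765 and 3729. Its 24 h libraries lay above those of 0 h without passing the test (0.13 ± 0.04, adjusted p = 0.012). Socs2 and Bcl3 were each higher by 0.20 (adjusted p = 0.000471 and 0.00198). Socs2 had stood near its 0 h level at 9 h and rose again by 24 h (0.20 ± 0.04, adjusted p = 0.00174), a call lost without replicate 2 (0.18) or replicate 3 (0.19) of 24 h. Pim1 remained lower (-0.44 ± 0.05, adjusted p = 6.3e-06). Between 9 h and 24 h, 13% of all genes (7% higher and 6.02% lower) passed.

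The order of the 4 time points differed among members. For Socs3 it was 3 h, 9 h, 24 h and 0 h, and only the last neighbours differed past the threshold. For Stat3 it was the same, and only 9 h and 24 h differed among neighbours. Pim3 ran 3 h, 9 h, 24 h and 0 h and Bcl3 3 h, 24 h, 9 h and 0 h, and in both genes only 3 h stood apart from its neighbour. For Lifr and Junb no pair of neighbours differed past the threshold.

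After 10 passages, EMM cells had more Socs3, Stat3 and Pim3 RNA than Serum/LIF cells, and 2 further members, Lifr and Socs2, were over 2-fold higher. In all, 5 members were higher and 1 was lower, against 37.4% of all genes (18.7% higher and 18.7% lower) that passed. The median log2 fold change was 0.49 over the members and 0.012 over all genes. The members past a 2-fold difference were 3 of 10, against 17.1% of all genes. Lifr, which encodes the LIF-binding receptor subunit, held 2546, 2383 and 2110 normalized counts in EMM and 915.2, 999.1 and 915.1 in Serum/LIF. Its log2 fold change was 1.32 ± 0.09 (SE, adjusted p = 1.7e-09). Socs2 held 2630, 2642 and 2453 in EMM and 1116, 1058 and 1227 in Serum/LIF, a log2 fold change of 1.19 ± 0.11 (adjusted p = 6.63e-08). In the other experiment Lifr did not pass at any time point and Socs2 reached 0.24, values that were not tested against those of P10. Socs3 was at 3272, 3162 and 3278 in EMM and 1896, 2151 and 1640 in Serum/LIF, a log2 fold change of 0.77 ± 0.13 (adjusted p = 9.15e-05). Stat3 was higher by 0.56 ± 0.07 (adjusted p = 5.27e-06), with 2110, 2050 and 2036 against 1393, 1366 and 1436. Pim3 was higher by 0.63 ± 0.14 (adjusted p = 0.00106), and its replicate 3 in EMM, at 6847, lay well above replicates 1 and 2 at 4939 and 4977. All 5 genes had EMM libraries that lay above every Serum/LIF library.

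Pim1 was the only member lower in EMM past the threshold. Its EMM libraries held 1409, 1331 and 1347 normalized counts and its Serum/LIF libraries 3818, 3677 and 3305, a log2 fold change of -1.40 ± 0.08 (SE, adjusted p = 1.53e-10). Il6st, at 0.42 (95% confidence interval 0.15 to 0.70, adjusted p = 0.0115, though it passed without replicate 3 of EMM), Bcl3, at 0.29 (0.03 to 0.55), Jak1, at 0.07 (-0.09 to 0.24), and Junb, at -0.16 (-0.52 to 0.20), did not pass.

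After 20 passages the same comparison gave 3 members higher and 2 lower, against 26% of all genes (13.6% higher and 12.5% lower). No member was past 2-fold, a size reached by 9.63% of all genes. Socs2 was at 2314, 2291 and 2305 in EMM and 1266, 1199 and 1032 in Serum/LIF, a log2 fold change of 0.98 ± 0.11 (SE, adjusted p = 1.55e-06). Lifr was higher by 0.63 ± 0.09 (adjusted p = 2.26e-05). The receptor subunit Il6st was higher by 0.52 ± 0.13 (adjusted p = 0.00383), a call that was lost when any library but P20 Serum/LIF replicate 2 was left out (0.48 to 0.54). Pim1 was lower (-0.45 ± 0.08, adjusted p = 0.000181), and Bcl3 was lower as well (-0.70 ± 0.12, adjusted p = 0.000155), with 375.8, 358.1 and 321.3 in EMM and 569.3, 553.6 and 590.6 in Serum/LIF. Socs3 was at 1334, 1487 and 1152 in EMM and 1521, 1484 and 1589 in Serum/LIF, with overlap and a log2 difference of -0.21 (95% confidence interval -0.49 to 0.07). Stat3 likewise overlapped (-0.09, -0.24 to 0.06).

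**Figure D2:**
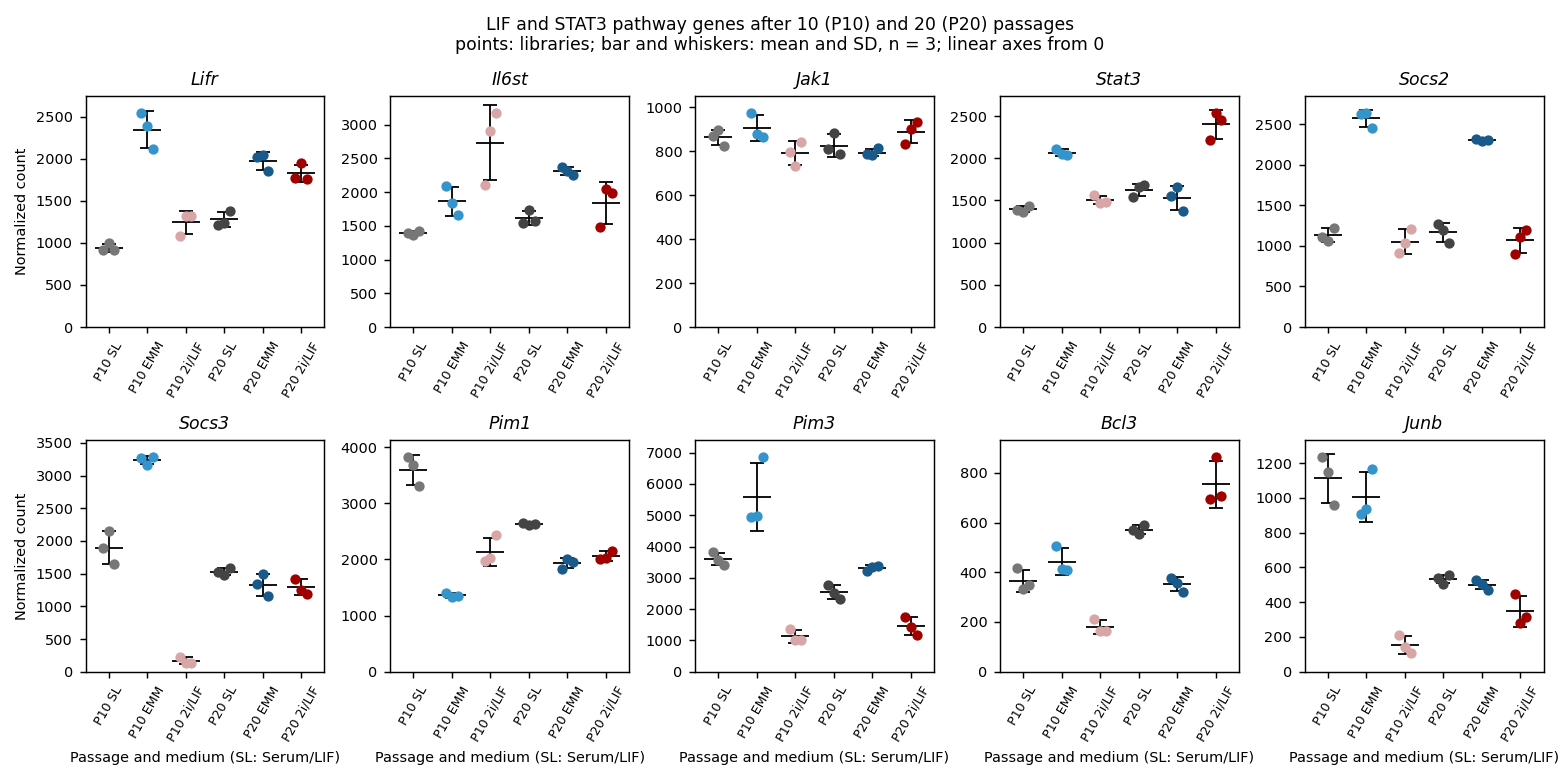
Normalized counts (vertical axes, linear from 0) of the 10 members in Serum/LIF (SL), EMM and 2i/LIF after 10 and 20 passages, with 1 point per library and the mean and SD of 3 libraries. Socs3 lay at 134.4 to 226 in P10 2i/LIF and at 1188 to 1424 in P20 2i/LIF, while Socs2 was high in EMM at both passages.

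Against Serum/LIF, the largest log2 differences of the members were in 2i/LIF after 10 passages, where 5 members were lower than in Serum/LIF and 2 were higher, against 52% of all genes (26.4% higher and 25.6% lower). The median log2 fold change was -0.44 over the members and 0.018 over all genes. The members past 2-fold were 4 of 10, all lower, against 26.4% of all genes in either direction. Socs3 held 226, 138 and 134.4 normalized counts in 2i/LIF and 1896, 2151 and 1640 in Serum/LIF, a log2 fold change of -3.54 ± 0.16 (SE, adjusted p = 2.16e-12). Junb held 208.8, 142.3 and 105.1 in 2i/LIF and 1233, 1149 and 956.7 in Serum/LIF, a log2 fold change of -2.91 ± 0.20 (adjusted p = 5.76e-10). In both genes the 2i/LIF libraries lay far below all Serum/LIF libraries, and replicate 1 was the highest of the 3. Pim3 held 1364, 1008 and 1021 against 3811, 3582 and 3407 (-1.67 ± 0.15, adjusted p = 1.65e-08). Bcl3 held 210.3, 165.6 and 163.7 against 415.7, 334.3 and 347.1 (-1.04 ± 0.13, adjusted p = 1.79e-06). With 1 library left out the Bcl3 value ranged from -1.15 to -0.92, so its 2-fold size did not hold in every such fit. Pim1 was lower by less (-0.75 ± 0.08, adjusted p = 1.7e-07). The RNAs of the receptor subunits were on the other side. Il6st held 2111, 2905 and 3178 in 2i/LIF against 1394, 1360 and 1425, a log2 fold change of 0.97 ± 0.13 (adjusted p = 3.6e-06), and Lifr was higher by 0.40 ± 0.09 (adjusted p = 0.000826). Stat3, at 0.11 (95% confidence interval -0.05 to 0.26), Socs2, at -0.10 (-0.33 to 0.13), and Jak1, at -0.13 (-0.29 to 0.04), did not pass.

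After 20 passages in 2i/LIF, 3 members were above Serum/LIF and 3 below, against 44.2% of all genes (21% higher and 23.2% lower). No member was past 2-fold, where 22.3% of all genes were. Stat3 held 2211, 2540 and 2458 normalized counts against 1544, 1659 and 1679, a log2 fold change of 0.56 ± 0.07 (SE, adjusted p = 3.34e-06). Lifr was higher by 0.52 ± 0.09 (adjusted p = 7.49e-05) and Bcl3 by 0.41 ± 0.12 (adjusted p = 0.00672). The Bcl3 call was lost without P20 2i/LIF replicate 2 (0.29) and without any of the P20 Serum/LIF replicates (0.38 to 0.43). Pim3 was lower, with 1739, 1437 and 1167 against 2769, 2529 and 2314 (-0.82 ± 0.14, adjusted p = 9.16e-05), and so was Pim1 (-0.35 ± 0.08, adjusted p = 0.000879). Junb held 448.8, 280 and 314.2 against 538.9, 507.1 and 554.4, a log2 fold change of -0.65 ± 0.18 (adjusted p = 0.00547). That call was lost when any library but replicate 1 of P20 2i/LIF was left out (-0.51 to -0.69). Junb lies on chromosome 8, where the median over the genes tested was 0.45 in this comparison, so its value less that median was -1.10. Socs3, at 1424, 1254 and 1188, lay below all P20 Serum/LIF libraries without passing (-0.25, 95% confidence interval -0.53 to 0.03).

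EMM and 2i/LIF, compared directly, differed in 9 of the 10 members at P10, 7 higher in EMM and 2 lower, against 45.1% of all genes (22.9% higher and 22.2% lower). The members past 2-fold were 5 of 10, against 22.1% of all genes. Socs3 was 19.9-fold higher in EMM (log2 4.31 ± 0.16, SE, adjusted p = 2.81e-13), Junb 6.76-fold (2.76 ± 0.20, adjusted p = 1.8e-09), Pim3 4.94-fold (2.31 ± 0.15, adjusted p = 3.64e-10), Bcl3 2.5-fold (1.32 ± 0.13, adjusted p = 1.24e-07) and Socs2 2.44-fold (1.29 ± 0.11, adjusted p = 1.61e-08). Lifr was higher by 0.92 ± 0.09 (adjusted p = 9.59e-08) and Stat3 by 0.46 ± 0.07 (adjusted p = 4.22e-05). Pim1 (-0.65 ± 0.08, adjusted p = 1.61e-06) and Il6st (-0.55 ± 0.13, adjusted p = 0.00143) were lower in EMM. The Il6st call was lost without P10 2i/LIF replicate 3 (-0.42) and when only the 2 groups were fitted (-0.54). The median log2 fold change was 1.10 over the members and 0.013 over all genes.

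At P20 the 2 media differed in 4 members, 2 in each direction, against 48.6% of all genes (25.7% higher and 22.9% lower). Socs2 (1.10 ± 0.11, SE, adjusted p = 8.32e-08) and Pim3 (1.20 ± 0.14, adjusted p = 9.32e-07) were still higher in EMM, whereas Bcl3 (-1.11 ± 0.12, adjusted p = 2.62e-07) and Stat3 (-0.66 ± 0.07, adjusted p = 4.1e-07) were lower. Socs3 differed by 0.05 (95% confidence interval -0.23 to 0.32), and its EMM libraries, at 1334, 1487 and 1152, overlapped those of 2i/LIF. Junb was higher by 0.56 without passing (0.18 to 0.95, adjusted p = 0.0126), and passed without the shallow replicate 1 of P20 2i/LIF (0.75, adjusted p = 0.00146). Less the chromosome 8 median it was 0.85.

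**Figure D3:**
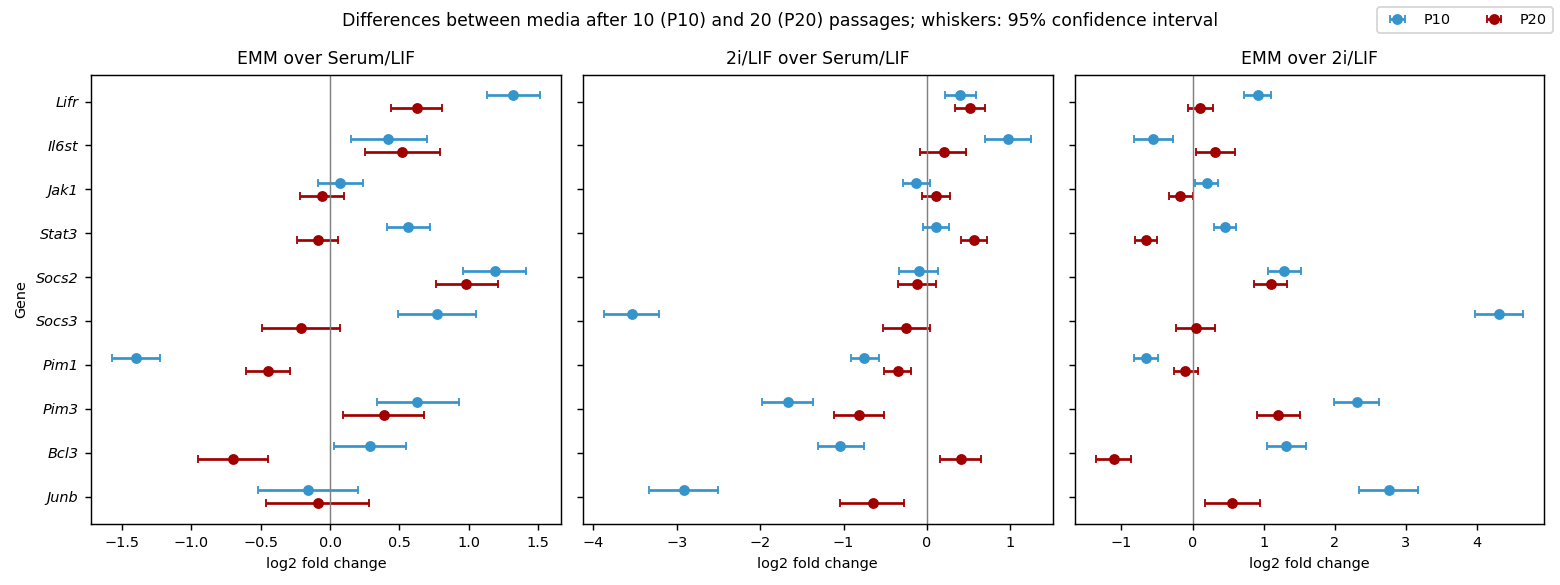
Log2 fold changes between media of each member at P10 and P20, with 95% confidence intervals from 3 libraries per group. Socs3 in EMM over 2i/LIF stood at 4.31 at P10 and 0.05 at P20, whereas Socs2 stood at 1.29 and 1.10.

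The comparison of passages within a medium gave the same picture from the other side, on the same libraries. In 2i/LIF, 5 members were higher at P20 and 1 was lower, against 28.3% of all genes (13.1% higher and 15.2% lower). Socs3 was 7.89-fold higher (log2 2.98 ± 0.16, SE, adjusted p = 3.68e-10), Bcl3 4.24-fold (2.08 ± 0.13, adjusted p = 2.05e-09) and Junb 2.29-fold (1.20 ± 0.20, adjusted p = 0.000147). The median over chromosome 8 was 0.32 here, so the Junb value less that median was 0.87, and its call was lost when only the 2 groups were fitted without a replicate block (1.21, adjusted p = 0.0133 by edgeR). Bcl3 held 693.1, 862.3 and 706 normalized counts at P20. Stat3 (0.68 ± 0.07, adjusted p = 1.62e-06) and Lifr (0.55 ± 0.09, adjusted p = 8.94e-05) were higher too, and Il6st was lower (-0.56 ± 0.13, adjusted p = 0.00192), a call lost in the same unblocked fit of the 2 groups (-0.55, adjusted p = 0.0362) and without P10 2i/LIF replicate 2 (-0.52) or 3 (-0.44). Pim3 did not pass (0.35, adjusted p = 0.0623). Same-numbered libraries deviated together in this comparison, and in a fit of the 2 groups alone with a block for the number, chosen after seeing the data, Junb (1.24, adjusted p = 0.000248), Il6st (-0.55, adjusted p = 0.000314) and Pim3 (0.37, adjusted p = 0.00611) passed edgeR's test. In EMM the direction was mostly downward, with 4 members lower and 1 higher at P20, against 25.3% of all genes (13.3% higher and 11.9% lower). Socs3 (-1.29 ± 0.13, adjusted p = 1.02e-06), Junb (to 0.501 of its P10 level, adjusted p = 0.000251), Pim3 (-0.75 ± 0.14, adjusted p = 0.000421) and Stat3 (-0.44 ± 0.07, adjusted p = 0.000174) fell, and Pim1 rose (0.50 ± 0.08, adjusted p = 9.46e-05).

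Serum/LIF itself differed between passages in 4 members, against 6.01% of all genes (3.16% higher and 2.85% lower). Junb was lower at P20 (-1.06 ± 0.17, SE, adjusted p = 0.00064), with 538.9, 507.1 and 554.4 normalized counts against 1233, 1149 and 956.7. Pim1 was lower (-0.45 ± 0.08, adjusted p = 0.000875), Bcl3 higher (0.64 ± 0.12, adjusted p = 0.00168) and Lifr higher (0.44 ± 0.09, adjusted p = 0.00338). Without P10 Serum/LIF replicate 3 only 2 of these calls were left, those of Junb and Pim1. The Lifr call was also lost without P10 replicate 1 (0.42), P20 replicate 2 (0.46) or P20 replicate 3 (0.38), and the Bcl3 call without P10 replicate 2 (0.58). Mitochondrial genes took 0.986% to 1.23% of the counts in the P10 Serum/LIF libraries and 2.16% to 2.24% at P20, without overlap. In EMM they took 0.848% to 1.88% at P10 and 2.26% to 2.54% at P20, also without overlap, and in 2i/LIF 1.47% to 3.39% and 1.04% to 2.75%, with overlap. Their part in the differences between passages was not tested.

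The difference between media was itself compared between passages, by an interaction term. The gap between EMM and 2i/LIF was smaller or of opposite sign at P20 for 8 members, and it differed for 32.3% of all genes (16.9% higher and 15.4% lower). The change in log2 fold change was -4.27 ± 0.21 (SE, adjusted p = 1.46e-10) for Socs3, -2.43 ± 0.18 (adjusted p = 1.5e-08) for Bcl3 and -2.19 ± 0.27 (adjusted p = 5.2e-06) for Junb, or -1.91 for Junb less the chromosome 8 median. For Stat3 and Bcl3 the sign of the gap turned from higher in EMM to lower in EMM, and both values passed the test at each passage. The change for Socs2 did not pass, at -0.19 (95% confidence interval -0.51 to 0.13). Between EMM and Serum/LIF, 5 members differed between passages, against 14.7% of all genes (8.28% higher and 6.43% lower), with Pim1 the only one whose value moved upward (0.95 ± 0.11, adjusted p = 5.38e-06). Between 2i/LIF and Serum/LIF, 6 members did, against 20% of all genes (9.16% higher and 10.9% lower), and Socs3 moved most (3.29 ± 0.20, adjusted p = 8.52e-09).

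**Figure D4:**
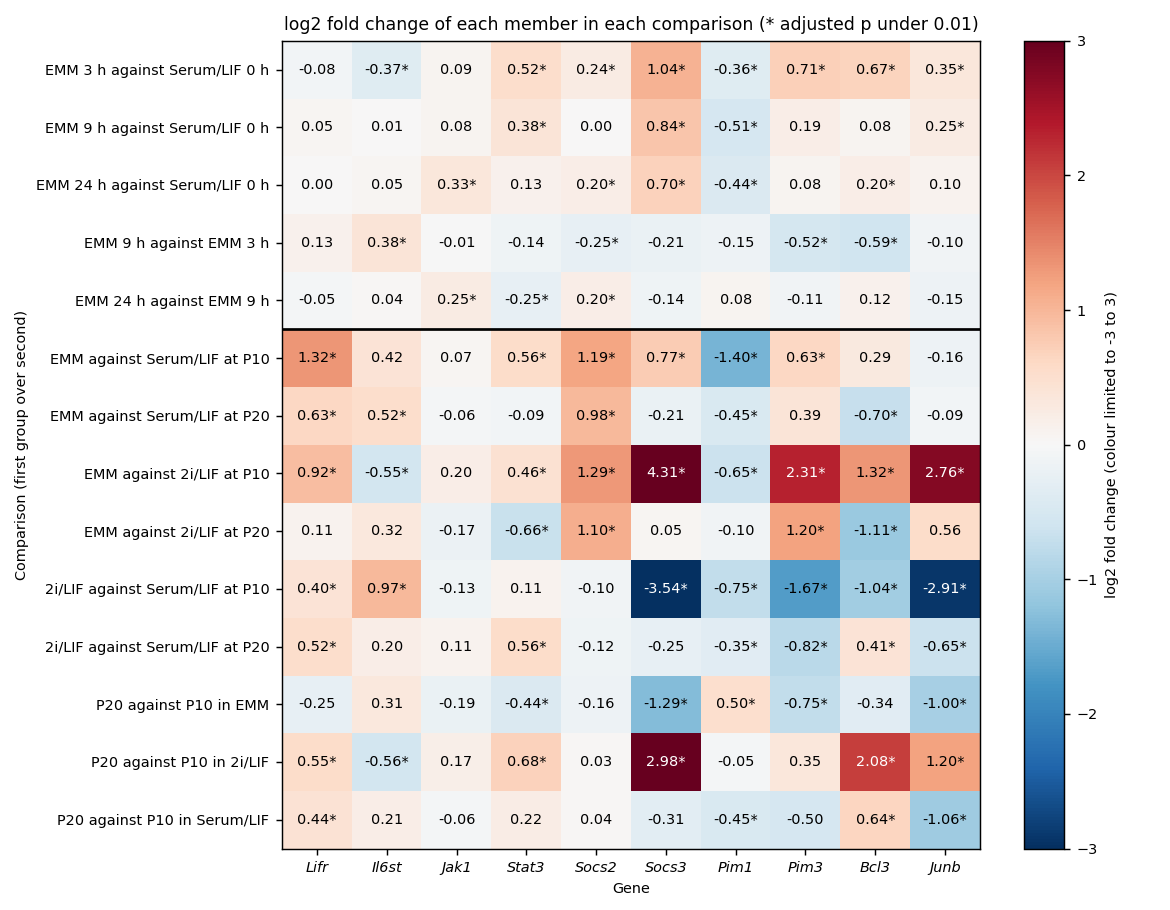
Log2 fold change (colour and number) of each member (columns) in the 14 comparisons (rows, the first group over the second), with an asterisk where the adjusted p was under 0.01. The 5 upper comparisons are of the time course. Values run from -3.54 for Socs3 in 2i/LIF over Serum/LIF at P10 to 4.31 for Socs3 in EMM over 2i/LIF at P10.

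Across the 6 groups of the passage experiment the order of mean levels set the members apart. Socs3 was highest in P10 EMM, at 3237 ± 65 normalized counts (SD, n = 3), and lowest in P10 2i/LIF, at 166.1 ± 51.9, and both ends differed from their neighbours past the threshold. The 4 groups in between, from P10 Serum/LIF (1896 ± 255) to P20 2i/LIF (1288 ± 122), did not differ from neighbour to neighbour. Stat3 was highest in P20 2i/LIF (2403 ± 171) and lowest in P10 Serum/LIF (1398 ± 35.1), and only P10 EMM (2065 ± 39) and P20 Serum/LIF (1628 ± 73) differed among neighbours. Pim1 was highest in P10 Serum/LIF (3600 ± 265) and lowest in P10 EMM (1362 ± 41.1). Socs2 fell into 2 levels, 2303 ± 11.6 to 2575 ± 106 in EMM and 1051 ± 153 to 1166 ± 120 in the other 4 groups. Jak1 ranged only from 790.8 ± 55.2 to 906.4 ± 60.3, with no neighbours that differed past the threshold. Junb was highest in P10 Serum/LIF (1113 ± 141) and lowest in P10 2i/LIF (152.1 ± 52.5).

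A wider list of 64 other pathway genes (ligands, receptors, kinases and STATs, inhibitors, adaptors and further targets) was read the same way. Of its 61 genes tested in the time course, 15 were higher and 11 lower at 24 h in EMM than at 0 h (42.6% in all, against 44% of all genes). Tfcp2l1, a transcription factor through which STAT3 supports self-renewal, rose from 8950 ± 714 to 18900 ± 497 normalized counts (SD, n = 3), with no overlap and an adjusted p of 4.08e-10 (log2 SE 0.05). Pim2, the other kinase of the Pim family, fell like Pim1, from 2720 ± 166 to 909 ± 39.9 (-1.58 ± 0.08, adjusted p = 3.13e-10). The IL-6 receptor gene Il6ra rose from 40.4 ± 3.09 to 82.7 ± 11.6 (1.04 ± 0.15, adjusted p = 3.87e-05).

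After 10 passages in EMM, 17 of the 63 listed genes tested were higher and 15 were below Serum/LIF (50.8%, against 37.4% of all genes). Among genes with at least 50 normalized counts in 1 group and no overlap of libraries, Pim2 was the largest fall, from 2750 ± 243 to 407 ± 45.5 normalized counts (log2 -2.74 ± 0.13, SE, adjusted p = 1.47e-11), followed by the stress-response gene Gadd45g (-2.06 ± 0.29, adjusted p = 1.17e-05). The transcription factor genes Gbx2 (1.58 ± 0.14, adjusted p = 6.04e-08), Cebpd (1.35 ± 0.27, adjusted p = 0.000486) and Tfcp2l1 (1.31 ± 0.10, adjusted p = 6.19e-09) were the largest rises by the same rule. At P20, 7 were higher and 15 lower (34.9%, against 26%). Pim2 was then higher in EMM, at 2080 ± 247 against 988 ± 116 (1.07 ± 0.12, adjusted p = 2.14e-06), and Gbx2 lower, at 236 ± 10.5 against 507 ± 32.2 (-1.10 ± 0.14, adjusted p = 7.3e-06). Both genes had thus passed in opposite directions at the 2 passages. Cebpd (1.82 ± 0.27, adjusted p = 4.53e-05) and the AP-1 gene Fos (1.18 ± 0.27, adjusted p = 0.00207) were higher and Il6ra lower (-1.15 ± 0.14, adjusted p = 5.69e-06).

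In 2i/LIF at P10, 18 of the 63 stood above Serum/LIF and 21 below (61.9%, against 52% of all genes), and of the 16 further targets 10 were lower and 4 higher, with a median log2 fold change of -0.74 (0.018 over all genes). Cebpb, a transcription factor, was at 13.8 ± 3.5 normalized counts against 179 ± 23.4 (log2 -3.75 ± 0.31, SE, adjusted p = 9.5e-09). Tfcp2l1 was on the other side of Socs3, Junb, Pim3 and Bcl3, at 15700 ± 2200 against 3630 ± 364 (2.12 ± 0.10, adjusted p = 6.14e-12). The cytokine gene Osm, at 271 ± 55.3 against 8.84 ± 1.65 (4.91 ± 0.29, adjusted p = 9.11e-11), and Il6ra, at 522 ± 15 against 39.7 ± 7.71 (3.71 ± 0.13, adjusted p = 1.17e-13), were higher too. Cntfr, the gene of the CNTF receptor, was near 0 in 2i/LIF, at 3.8 ± 1.78 against 167 ± 37.8 in Serum/LIF (adjusted p = 6.78e-10). Its 2i/LIF libraries held at most 4 counts, so no fold is given.

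At P20 in 2i/LIF, 10 were higher and 25 lower (55.6%, against 44.2% of all genes), with 12 of the 16 further targets lower and 2 higher (median -1.24, against -0.006 over all genes). Tfcp2l1, given here after its values were seen, was at 17000 ± 628 normalized counts, against 15700 ± 2200 in 2i/LIF at P10. The Janus kinase gene Jak3, at 3020 ± 449 against 523 ± 27.1 (log2 2.53 ± 0.11, SE, adjusted p = 3.69e-12), Osm (3.69 ± 0.27, adjusted p = 2.05e-09) and Il6ra (3.09 ± 0.12, adjusted p = 8.15e-13) were higher. Pim2 (-2.72 ± 0.14, adjusted p = 2.19e-11) and Stat4 (-2.46 ± 0.20, adjusted p = 1.02e-08) were lower, and Cntfr was at 4.5 ± 5.43 against 190 ± 3.77 (adjusted p = 7.73e-10).

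Among 14652 genes tested in both experiments, likeness to Socs3 and to Stat3 was described by the smaller of the Pearson correlations over the 12 and the 18 libraries, taken on log2 CPM. The genes most like Socs3 were Trp53i11, Emc8 and Lasp1 (0.88 each), then Inf2 and Junb (0.87 each). Junb was thus the only other member among them. Genes among the 5 most like Stat3 were Taf1c and Ddx49 (0.84 each) and Ubxn8 and Cluh (0.82 each), with no member among the 5. The points share groups and library depth, and no test was made.

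In the GENCODE M21 annotation on GRCm38 (mm10), the genes lie as follows: Lifr (ENSMUSG00000054263) at chr15:7090614-7197489 on the plus strand, Il6st (ENSMUSG00000021756) at chr13:112464070-112510086 on the plus strand, Jak1 (ENSMUSG00000028530) at chr4:101152367-101265282 on the minus strand, Stat3 (ENSMUSG00000004040) at chr11:100885098-100939540 on the minus strand, Socs2 (ENSMUSG00000020027) at chr10:95385362-95417180 on the minus strand, Socs3 (ENSMUSG00000053113) at chr11:117966079-117970047 on the minus strand, Pim1 (ENSMUSG00000024014) at chr17:29490753-29496112 on the plus strand, Pim3 (ENSMUSG00000035828) at chr15:88862186-88865726 on the plus strand, Bcl3 (ENSMUSG00000053175) at chr7:19808462-19822770 on the minus strand and Junb (ENSMUSG00000052837) at chr8:84974484-84978718 on the minus strand. The 351 bases that Junb shares with Prdx2 on the opposite strand hold 173 bases in exons of both, and Stat3 shares 72 exon bases with Stat5a. Pim1 shares 488 exon bases with Gm26885, Bcl3 161 with Gm16175 and Jak1 4 with Raver2, all on the opposite strand. Gm26885 was tested in the passage experiment, with a mean of 8.28 counts, and Gm16175 in neither experiment. The counting strand is not given in the sources used here, so reads there cannot be told apart. Prdx2 was tested in both experiments, with a mean of 4880 counts in the time course and 3140 in the passage experiment, and its part in the Junb counts was not tested.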

How the data were processed

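RNA-seq of E14tg2a ESCs was analysed in 12 time-course and 18 passage libraries, with 3 libraries per group, described as independent experiments. Per the labels, the submitters' processing notes name STAR, featureCounts and DESeq2 on mm10 for the time course, where the authors deposited raw counts per gene, and STAR, Salmon and DESeq2 for the passages, where the deposited values are estimated counts (9.982% not whole), rounded here. Versions are not given in the sources used here, and the study's methods name HTSeq in place of featureCounts.

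Genes passing edgeR's filterByExpr (edgeR 4.0.16, R 4.3.3) were fitted by quasi-likelihood with TMM scaling, all groups of an experiment in 1 model, and p-values were adjusted by Benjamini-Hochberg over all genes tested, at 0.01, with a log2 fold change above 1 as a further limit. Normalized counts are counts over the TMM effective library size times its mean in the experiment. RPKM used GENCODE M21 exon lengths. Intervals are 95%. Members and lists were chosen with earlier results of these data known. Named from the wider lists were the 3 genes with the largest change in each direction past both limits, with no overlap of libraries and at least 50 normalized counts in 1 group. The 5 genes most like Socs3 and Stat3 were taken by correlation. Some genes that these rules name are not reported here. Same-numbered libraries deviated together only in P20 against P10 in 2i/LIF, with correlations of 0.3, 0.13 and 0.22. Replicate numbers are those of the sample titles. In the deposited time-course columns the EMM libraries carry numbers 1 higher than their titles and the Serum/LIF libraries the same numbers, so the block for EMM against 0 h rests on title numbers alone, and a pairing by column number was not run. No 2 libraries of a group held counts alike within sampling noise. Time-course pairs were uneven, with a chi-square per degree of freedom of 2.09 to 2.69 among the 3 h libraries. It was 2.49 for replicates 1 and 2 of 9 h and 2.89 for replicates 2 and 3 of 24 h. The other time-course pairs had 10.1 to 14.1, and the cause was not tested. Alternatives were DESeq2's size factors and Wald test (DESeq2 1.42.0), library totals, no filter, only the groups compared, a replicate block, counts not rounded, subtraction of the chromosome's median, a threshold of 0.05 and leaving out each library.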

Additional observations from a re-analysis of the deposited data

Results flagged for a closer look

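Differences between media that were not the same at P10 and P20, by the interaction term in edgeR's quasi-likelihood test, were found for 19 combinations of a member and a pair of media. Each value is the log2 fold change at P20 minus that at P10, with its SE. For EMM over Serum/LIF, they were Lifr (-0.69 ± 0.13, adjusted p = 0.00053), Stat3 (-0.65 ± 0.10, adjusted p = 0.000153), Socs3 (-0.98 ± 0.19, adjusted p = 0.000779), Bcl3 (-0.99 ± 0.17, adjusted p = 0.000344) and Pim1 (0.95 ± 0.11, adjusted p = 5.38e-06).

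For 2i/LIF over Serum/LIF, Socs3 (3.29 ± 0.20, adjusted p = 8.52e-09), Junb (2.26 ± 0.27, adjusted p = 1.16e-05), Bcl3 (1.44 ± 0.18, adjusted p = 1.5e-05), Pim3 (0.85 ± 0.20, adjusted p = 0.00369) and Stat3 (0.46 ± 0.10, adjusted p = 0.00284) moved upward and Il6st moved downward (-0.78 ± 0.18, adjusted p = 0.00351). Less the chromosome 8 median, the Junb value was 1.87. The Il6st call was lost without any of 4 libraries (replicates 2 and 3 of P10 2i/LIF, replicate 2 of P10 Serum/LIF or replicate 2 of P20 Serum/LIF, -0.76 to -0.65). The Pim3 call was lost without any of 5 libraries (replicates 2 and 3 of P10 2i/LIF, replicate 1 of P10 Serum/LIF, replicate 1 of P20 2i/LIF or replicate 3 of P20 Serum/LIF, 0.71 to 0.81).

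For EMM over 2i/LIF, Socs3 (-4.27 ± 0.21, adjusted p = 1.46e-10), Bcl3 (-2.43 ± 0.18, adjusted p = 1.5e-08), Junb (-2.19 ± 0.27, adjusted p = 5.2e-06), Stat3 (-1.11 ± 0.10, adjusted p = 2.84e-07), Pim3 (-1.10 ± 0.20, adjusted p = 0.000272) and Lifr (-0.81 ± 0.13, adjusted p = 5.71e-05) moved downward, and Il6st (0.87 ± 0.18, adjusted p = 0.000864) and Pim1 (0.55 ± 0.11, adjusted p = 6e-04) upward. The 3 sets share libraries and are not independent. The fibroblast marker sum in Serum/LIF was 2870 to 3430 normalized counts per library at P10 and 4440 to 8500 at P20, and its part was not tested.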

How the results depend on the processing

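Of 95 member results that passed the test, 82 passed with the same sign under all alternatives run at the threshold of 0.01, 13 were lost under at least 1, and none changed sign. Of the results that had not passed, 17 did so under at least 1 at the same threshold of 0.01. These were, in the time course, Pim3 at 9 h, Stat3 at 24 h (adjusted p = 0.0091 by DESeq2's Wald test, 0.00881 without replicate 1 of 0 h) and Lifr, Stat3, Socs3 and Pim1 at 9 h over 3 h. In the passages they were Il6st in EMM over Serum/LIF at P10, Pim3 in the same at P20, Il6st and Junb in EMM over 2i/LIF at P20, Lifr and Il6st (EMM), Pim3 (2i/LIF) and Socs3 and Pim3 (Serum/LIF) in P20 over P10, and the interactions of Pim1 (2i/LIF over Serum/LIF) and Jak1 (EMM over 2i/LIF). With a threshold of 0.05, 8 members differed between 9 h and 3 h in place of 4. Without a library, P20 against P10 in Serum/LIF gave between 2 and 4 members. A replicate block gave 6 in place of 4 members between 9 h and 3 h (Socs3 and Pim1 added, adjusted p = 0.00674 and 0.00965) and 5 in place of 4 between EMM and 2i/LIF at P20 (Junb added, adjusted p = 0.00937), and changed no other count. Library totals moved the median of all genes by -0.118 for 2i/LIF over Serum/LIF at P20, where Bcl3 no longer passed under that scaling (0.29). Fitting only the groups compared ended the calls of Junb at 9 h (0.27, adjusted p = 0.0137 by edgeR), Il6st in EMM over 2i/LIF at P10 (-0.54, 0.0107), Bcl3 in 2i/LIF over Serum/LIF at P20 (0.39, 0.0145) and Il6st and Junb in P20 over P10 in 2i/LIF (-0.55, 0.0362 and 1.21, 0.0133), the last 2 of which passed in that fit with a replicate block (0.000314 and 0.000248). Library totals also ended the calls of Junb at 9 h (0.22), Il6st in EMM over Serum/LIF at P20 (0.42) and the Stat3 interaction for 2i/LIF over Serum/LIF (0.38).

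Sign changes were limited to results near 0 that had not passed. With library totals these were Il6st at 9 h (-0.01), Jak1 at 9 h over 3 h (0.03), in EMM over Serum/LIF at P10 (-0.03), in 2i/LIF over Serum/LIF at P20 (-0.01) and in Serum/LIF P20 over P10 (0.01). With DESeq2's size factors, its Wald test or only the groups compared they were Socs2 at 9 h (0.01), Lifr at 24 h (0.00), Jak1 at 9 h over 3 h (0.00) and the Socs2 interaction for 2i/LIF over Serum/LIF (0.01). With no filter they were Socs2 at 9 h (0.03), Lifr at 24 h (0.03), Jak1 at P10 (0.00) and the Socs2 interaction (0.04). Without 1 library the ranges were 0.00 to 0.07 (Il6st, 9 h), -0.01 to 0.04 (Socs2, 9 h), -0.03 to 0.04 (Lifr, 24 h), -0.01 to 0.17 (Pim3, 24 h), -0.01 to 0.00 (Jak1, 9 h over 3 h), -0.05 to 0.14 (Socs3, EMM over 2i/LIF at P20), -0.06 to 0.15 (Socs2) and -0.11 to 0.05 (Pim1) for P20 over P10 in 2i/LIF, -0.02 to 0.12 (Socs2, P20 over P10 in Serum/LIF), -0.03 to 0.17 (Junb interaction, EMM over Serum/LIF) and -0.11 to 0.10 (Socs2 interaction). The causes were not tested. Where a library was left out, its group kept 2.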
